A study of Mus musculus with 30 samples.

Results

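Transcripts of 6 adrenergic receptor genes, the alpha-1 receptors Adra1a, Adra1b and Adra1d, the alpha-2 receptors Adra2a and Adra2c and the beta-1 receptor Adrb1, were measured in neural retina of mice given bright light with or without drugs that act on such receptors. The genes were taken by symbol, and they are 6 of the 42439 gene identifiers in the count tables. All mice were Abca4-/-Rdh8-/- on the C57BL/6J strain, male and female, 4 to 6 weeks old. The deleted genes encode a retinal transporter and a retinol dehydrogenase of photoreceptors, and retinas without both are damaged by bright light. No wild-type retina was included, so both deletions are shared by all groups. Poly(A) RNA was sequenced in 30 libraries, 3 in each of 10 groups, in a mixture experiment and a single-drug experiment that were performed separately. In the mixture experiment the groups were light after BMT (bromocriptine, metoprolol and tamsulosin), light after MDB (metoprolol, doxazosin and bromocriptine), light after the solvent DMSO, and no light with DMSO. In the single-drug experiment they were light after bromocriptine (BRM), metoprolol (MTP), tamsulosin (TAM) or doxazosin (DOX), light after DMSO, and no light with DMSO. Light was 10000 lux for 30 min, drug or solvent went into the peritoneum 30 min before it, and retinas were taken 24 h after it. No group received drug without light, and drug doses are not stated in the labels. The labels do not say whether the libraries of a group came from different animals, so p-values measure the spread between libraries, which may in part be technical.

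Adrenergic receptors are G protein-coupled receptors for noradrenaline and adrenaline. Alpha-1 receptors act mainly through Gq proteins, phospholipase C and calcium, alpha-2 receptors through Gi proteins that restrain adenylyl cyclase, and beta-1 receptors through Gs proteins that stimulate it. Metoprolol blocks the beta-1 receptor, doxazosin blocks the alpha-1 receptors, tamsulosin prefers the alpha-1A and alpha-1D forms, and bromocriptine activates dopamine receptors of the D2 type. Alpha-2 receptors are not the main target of any of these drugs.

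Libraries held 18.5 to 25.8 M counts in the mixture experiment and 12.0 to 22.2 M in the other, where TAM replicate 1 was the smallest. The 5 rod markers Gnat1, Pde6b, Sag, Nrl and Cnga1 were counted in every library. Lens transcripts varied between libraries, and a score of 6 lens-fibre genes, averaged as log2 CPM, ran between 1.32 and 9.89, and results that change when it enters the fit are named below. CPM means counts per 1 M, scaled by TMM (edgeR's normalization for library composition). FPKM means fragments per kilobase of transcript per 1 M, as deposited, and it is used where genes are compared with each other.

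All 6 receptors were low, and Adrb1 was the highest in every library. Adrb1 had a median of 5.78 FPKM over the 30 libraries, with a range of 3.77 to 7.44. Adra2a followed at 2.46 FPKM (1.54 to 3.99) and Adra2c at 2.11 FPKM (0.856 to 4.21). These alpha-2 genes changed places between libraries, with Adra2a second in 22 of 30 and Adra2c second in 8. Adra1d had a median of 0.932 FPKM (0.483 to 2.08), Adra1b 0.806 FPKM (0.350 to 1.40) and Adra1a 0.308 FPKM (0.0471 to 0.670). Adra1a was the lowest in 28 of 30 libraries. Adra1d and Adra1b could not be ordered firmly, since the fourth place went to Adra1d in 19 libraries and to Adra1b in 9. Among the genes tested, the mean FPKM of Adrb1 lay at percentile 43.0 in the mixture experiment and 45.1 in the single-drug experiment, and that of Adra1a at 5.51 and 7.14.

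**Figure D1:**
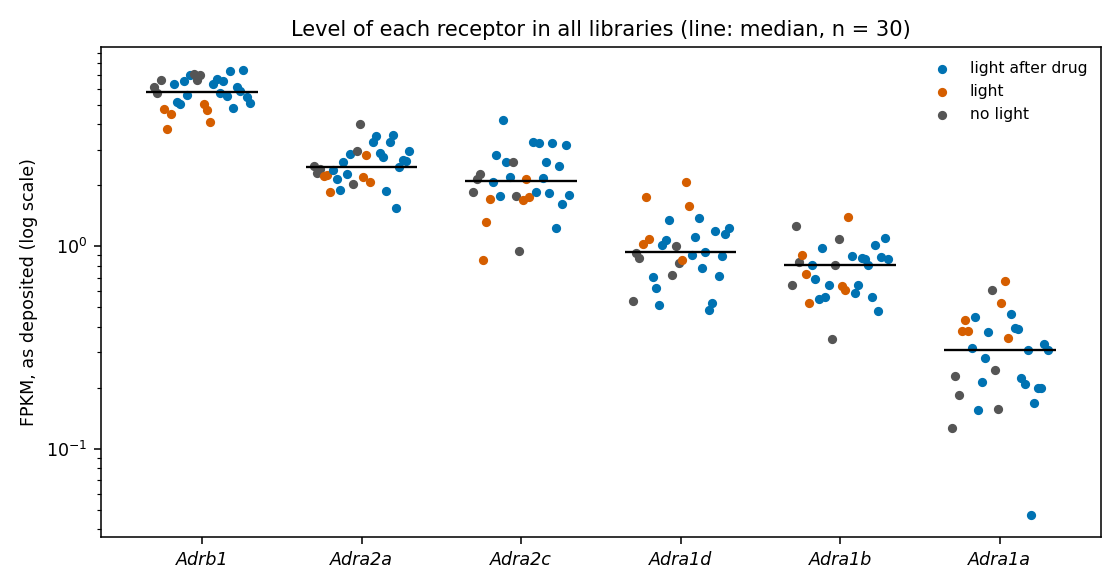
Deposited FPKM of the 6 receptor genes on a log axis, 1 point per library and a line at the median of 30 libraries. Adrb1 lies highest, between 3.77 and 7.44 FPKM, and Adra1a lowest, between 0.0471 and 0.670 FPKM.

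No receptor was too low to judge by the count filter, since all 6 passed it in both experiments. The precision differed widely all the same. Adrb1 had 134 to 346 counts per library, Adra2a 99.5 to 284 and Adra2c 51.9 to 263. Adra1b had 14.6 to 86.8 counts, Adra1d 11.1 to 72.4 and Adra1a 2.16 to 49.0. A group mean under 10 counts occurred once, for Adra1a in TAM (9.03 counts). As a measure of that precision, the ratio of Adra1a in light to no light in the mixture experiment had a 95% interval of 1.12 to 3.54.

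In the coordinates of the deposited tables (GRCm38.p3), Adrb1 (ENSMUSG00000035283) lies on chromosome 19 from 56722372 to 56724862 on the plus strand, and Adra2a (ENSMUSG00000033717) on the same chromosome from 54045182 to 54048982. Adra2c (ENSMUSG00000045318) lies on chromosome 5 from 35278566 to 35281761. Each of these is counted as 1 transcript with 1 exon. Adra1d (ENSMUSG00000027335) lies on chromosome 2 from 131545850 to 131562283 on the minus strand and has 1 transcript of 2 exons. It overlaps the antisense gene Gm14285 by 670 bases. The kit marks strand, but whether counting used it is not stated, so reads of this pair cannot be told apart with certainty. Gm14285 itself had at most 3.45 counts in any library.

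Adra1b (ENSMUSG00000050541, chromosome 11, 43774606 to 43901210) has 4 transcripts and Adra1a (ENSMUSG00000045875, chromosome 14, 66635251 to 66733462) has 5. Adra1b-003 and Adra1b-201 received identical values in 12 of 12 and 18 of 18 libraries, so the authors' counting split the same reads evenly between them. Adra1a counts were spread over Adra1a-001, Adra1a-002 and Adra1a-004, at 23.2% to 45.5% of the gene each, and each of these fell under 1 count in some library of at least 1 experiment. Isoforms of Adra1a and Adra1b were therefore not compared. The GENCODE M21 gene models on the same build extend Adrb1 by a further 8251 bases at its end and Adra1a by 37706 bases, and reads there did not count toward the deposited values of these genes.

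The promoters of Adrb1 and Adra2c are shown because these were the receptors called higher than light after both mixtures. RefSeq (GRCm38.p6) gave promoters for 4 of the 6 genes, and each window holds 300 bases around the start site, most of them upstream. Capitals mark the motifs searched on both strands: the core TGACG bound by CREB-type factors, the GC box GGGCGG, and TAATCC, a core site of CRX-type photoreceptor factors. The windows are chr19:56721867-56722166 for Adrb1 and chr5:35278316-35278615 for Adra2c, both on the plus strand. The Adrb1 window ends upstream of the gene's start in the deposited tables.
Adrb1: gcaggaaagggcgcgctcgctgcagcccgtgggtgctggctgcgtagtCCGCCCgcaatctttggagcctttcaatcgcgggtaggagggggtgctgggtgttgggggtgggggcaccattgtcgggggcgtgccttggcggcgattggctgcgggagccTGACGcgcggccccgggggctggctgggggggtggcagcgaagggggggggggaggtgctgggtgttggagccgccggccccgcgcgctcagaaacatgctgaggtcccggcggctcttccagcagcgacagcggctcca
Adra2c: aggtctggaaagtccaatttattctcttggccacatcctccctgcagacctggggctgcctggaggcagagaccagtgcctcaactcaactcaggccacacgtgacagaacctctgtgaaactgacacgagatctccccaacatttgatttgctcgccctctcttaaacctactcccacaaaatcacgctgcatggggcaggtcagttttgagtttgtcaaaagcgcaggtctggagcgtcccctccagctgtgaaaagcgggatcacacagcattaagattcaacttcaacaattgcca
The Adrb1 window held 1 TGACG and 1 GGGCGG, the last on the opposite strand, and no TAATCC. The Adra2c window held none of these letters. Of 32851 RefSeq promoter windows, 20.8% held TGACG, 35.7% GGGCGG and 7.06% TAATCC, so a match is common and is only a description of the sequence.

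The first comparison asks what bright light alone did to receptor transcripts. Adrb1 was lower after light in both experiments and was the only receptor called in either. In the mixture experiment Adrb1 had 9.87, 7.84 and 9.80 CPM after light, against 14.3, 13.5 and 15.5 CPM without light. The single-drug experiment gave 10.6, 9.64 and 8.58 CPM after light, against 17.4, 15.5 and 17.2 CPM without light. Every light library lay below every no-light library of its experiment. The means were 9.17 ± 1.15 CPM after light and 14.4 ± 1.00 CPM without light in the mixture experiment (SD, n = 3 each), and the log2 fold change was -0.65 ± 0.13 (SE, edgeR's quasi-likelihood test, adjusted p = 0.00657). The single-drug means were 9.60 ± 1.01 CPM after light and 16.7 ± 1.04 CPM without light, at -0.80 ± 0.15 on the log2 scale (adjusted p = 0.00159). The call was kept in all 9 other settings and without each library in turn, with adjusted p up to 0.0359 in the mixture experiment and up to 0.0109 in the single-drug experiment.

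Among all genes tested for light, 13.2% were called in the mixture experiment (5.47% lower) and 24% in the single-drug experiment (12.6% lower). A count of 1 receptor of 6 is near the shares called in either direction. It lies above the shares called lower, but it rests on 1 gene. Of the receptors, 4 of 6 had groups that did not overlap in the mixture experiment, which held for 30.3% of all genes, and 1 of 6 in the single-drug experiment, where the share was 40.4%. Rod transcripts moved with Adrb1. The 5 rod markers summed to 14200 to 17500 CPM after light, against 24800 to 28600 CPM without light in the mixture experiment, and to 9640 to 12800 CPM after light, against 27000 to 30300 CPM without light, in the single-drug experiment. Of them 4 were called lower in the mixture experiment and 5 in the single-drug experiment. In such bulk samples fewer cells of a type and less RNA per cell cannot be told apart, and the part of rod transcripts in the Adrb1 result was not tested.

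**Figure D2:**
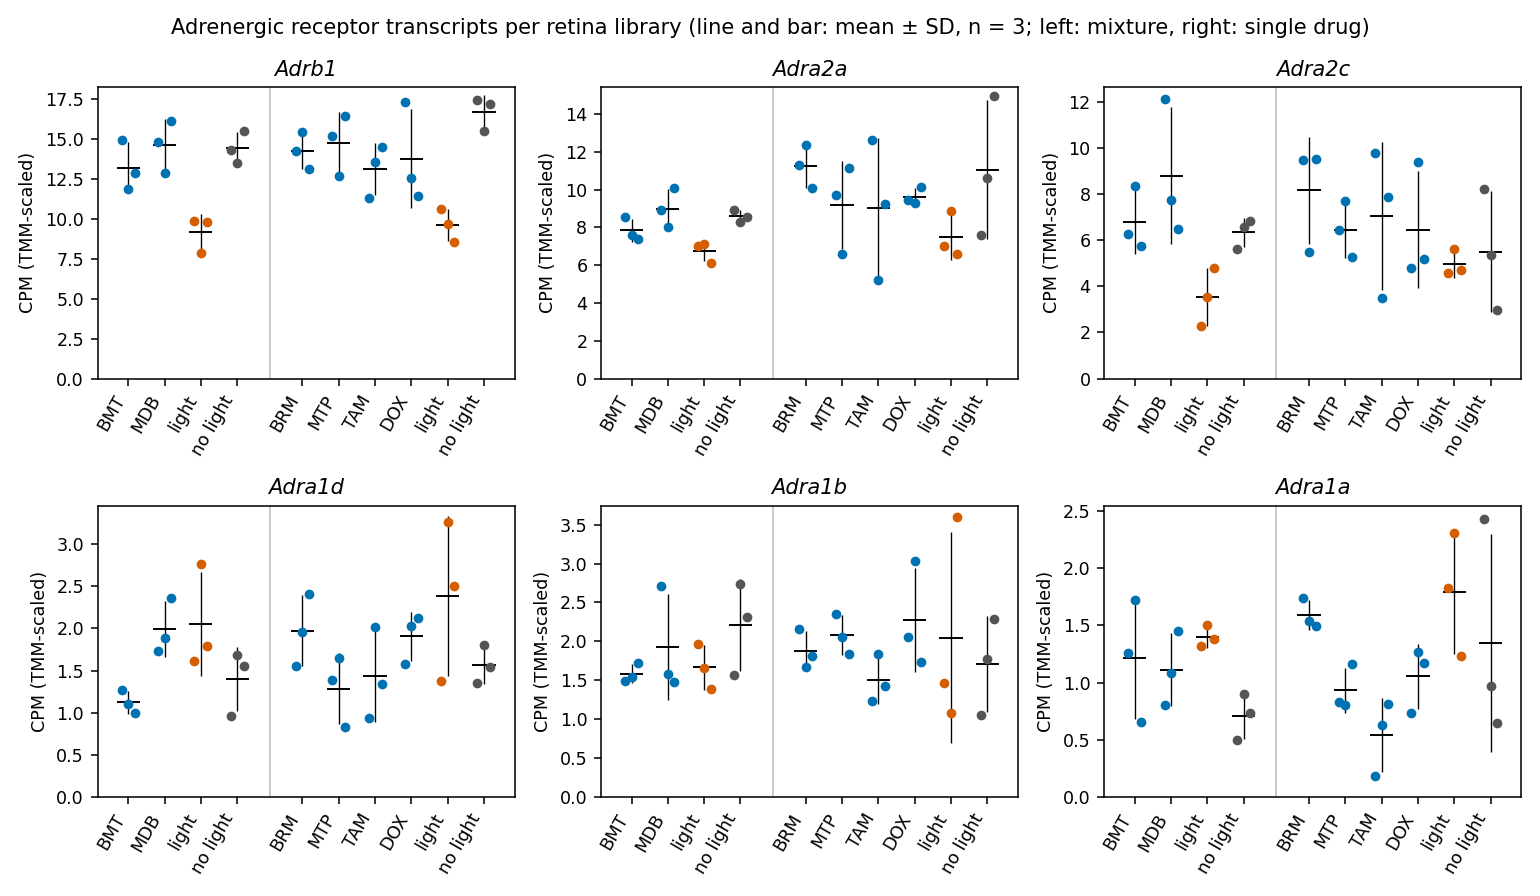
CPM (TMM-scaled) of each receptor per library and group, with the mean and SD of 3 libraries, the mixture experiment left of the grey line and the single-drug experiment right of it. Adrb1 stood at 7.84 to 9.87 CPM and 8.58 to 10.6 CPM in the light groups, below every library of the other groups of the same experiment, while the alpha-1 panels show wide spread at 0.183 to 3.60 CPM.

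The next comparisons ask whether pretreatment changed receptor transcripts in illuminated retina. Adrb1 was higher than light after both mixtures and after 3 of the 4 single drugs. After BMT it had 14.9, 11.9 and 12.8 CPM and after MDB 14.8, 12.9 and 16.1 CPM, each library above the light libraries. After BMT Adrb1 averaged 13.2 ± 1.58 CPM, against 9.17 ± 1.15 CPM in light, which is 0.53 ± 0.13 on the log2 scale (adjusted p = 0.0189). After MDB it averaged 14.6 ± 1.64 CPM, at 0.67 ± 0.13 against light (adjusted p = 0.00739). The MDB call was kept in all 9 other settings and without each library in turn. The BMT call was lost without light replicate 2 (adjusted p = 0.0727), without BMT replicate 1 (0.068) and with FPKM values (0.103 and 0.11).

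Metoprolol blocks the receptor that Adrb1 encodes, and its libraries overlapped those of the other single drugs in the level of this transcript. After MTP Adrb1 had 15.2, 12.7 and 16.4 CPM, after BRM 14.3, 15.4 and 13.1 CPM, after DOX 17.3, 12.6 and 11.4 CPM and after TAM 11.3, 13.6 and 14.5 CPM. All 12 libraries lay above the 3 light libraries of the experiment, and the drug groups overlapped each other. The log2 fold change against light was 0.62 ± 0.15 for MTP (adjusted p = 0.0172), 0.57 ± 0.15 for BRM (adjusted p = 0.0223) and 0.52 ± 0.15 for DOX (adjusted p = 0.04). For TAM it was 0.45 ± 0.15 and missed the threshold (adjusted p = 0.0731), though DESeq2 called it (adjusted p = 0.041). The drug groups share their light libraries, so these 4 contrasts are not independent of each other.

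The single-drug calls of Adrb1 were less stable than the light call. With FPKM values at a pseudocount of 1 they were lost for BRM (adjusted p = 0.0669), MTP (0.0525) and DOX (0.12). The BRM call was lost without light replicate 2 (0.0711) or 3 (0.0567) and without BRM replicate 1 (0.0545) or 2 (0.0902). The MTP call was lost without light replicate 2 (0.056) or 3 (0.0586), without MTP replicate 1 (0.0589) or 3 (0.0743), and with the lens-fibre score in the fit (0.0641). The DOX call was lost without light replicate 1 (0.0597), 2 (0.113) or 3 (0.0879), with the lens-fibre score (0.0552), with a replicate block (0.0548) and in a fit of only these groups (0.12). Without DOX replicate 1, the highest Adrb1 library of that group, the DOX difference was 0.32 (adjusted p = 0.219).

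For the counts of called receptors, the background was high in each of these comparisons. After BMT 2 of 6 receptors were called, both higher, where 17.7% of all genes were called and 7.96% were higher. After MDB the same 2 receptors, Adra2c and Adrb1, were called higher, where 9.63% of genes were called and 3.7% were higher. The count was 1 of 6, Adrb1, after BRM, MTP and DOX, where 14.4%, 10.3% and 11.9% of all genes were called and 7.08%, 5.37% and 6.79% were higher. After TAM it was 1 of 6, Adra1a, where 10.6% of genes were called and 4% were lower. Counts of 1 of 6 are near the shares called in either direction. They lie above the shares called in the same direction, but each rests on 1 gene. Receptors whose libraries did not overlap light numbered 4 after BMT, 3 after MDB and 2 after each single drug, where such genes made up 39.1%, 33.2%, 39.5% (BRM), 29.7% (MTP), 27.7% (TAM) and 31.3% (DOX) of all genes. Rod markers again moved with Adrb1: 4 or 5 of the 5 were higher than light after every drug or mixture, with sums of 18700 to 32300 CPM over the drug libraries. Their part in the Adrb1 result was not tested.

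Adra2c, which encodes the alpha-2C receptor, was higher than light after both mixtures. It had 6.29, 8.38 and 5.75 CPM after BMT and 12.2, 7.75 and 6.49 CPM after MDB, against 2.28, 3.53 and 4.79 CPM in light. The lowest mixture library, at 5.75 CPM, lay above the highest light library, at 4.79 CPM, and MDB replicate 1 stood well above the rest. The log2 fold change was 0.95 ± 0.29 for BMT (adjusted p = 0.0432) and 1.32 ± 0.29 for MDB (adjusted p = 0.0137). The BMT call of Adra2c was lost without any 1 of 5 libraries, namely light 1 (0.148), light 2 (0.107), BMT 1 (0.0689), BMT 2 (0.117) and BMT 3 (0.0636), with FPKM values (0.0955 and 0.0806), with a replicate block (0.0716) and in a fit of only these groups (0.0609). The MDB call was lost without light 1 (0.0556), light 2 (0.0539) or MDB 1 (0.0584).

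After light Adra2c averaged 3.53 ± 1.26 CPM, against 6.34 ± 0.63 CPM without light in the mixture experiment. These groups did not overlap, but the log2 fold change of -0.85 ± 0.29 was not called (adjusted p = 0.082). DESeq2 called it (adjusted p = 0.0334), and so did the main test without light replicate 3 (adjusted p = 0.0397). Adra2c differed in the single-drug experiment by -0.15 ± 0.39 (adjusted p = 0.816), with 4.96 ± 0.59 CPM after light and 5.51 ± 2.64 CPM without light, and the no-light libraries ran from 2.96 to 8.23 CPM. None of the single drugs moved Adra2c past the threshold, with log2 fold changes of 0.38 to 0.72 against light and adjusted p of 0.241 to 0.629. In the mixture experiment the 6 Müller glia markers, all counted in every library, summed to 1790 to 2610 CPM after BMT and 2480 to 2730 CPM after MDB, against 1180 to 1240 CPM in light. The markers went both ways, with 2 called higher and 1 lower after each mixture and medians of 0.132 for BMT and 0.22 for MDB. In the single-drug experiment their sum was 2800 to 2870 CPM after BRM, against 1490 to 1630 CPM in light. It was 2250 to 2600 CPM after MTP and 1670 to 2230 CPM after DOX. After TAM it ran from 1260 to 2730 CPM and overlapped light. After BRM 1 marker was called higher and 1 lower, and the medians were 0.0651 (BRM), -0.0702 (MTP), -0.25 (TAM) and -0.281 (DOX). Without light the sum was 2000 to 2710 CPM in the mixture experiment and 2300 to 2490 CPM in the single-drug experiment, above light in both. For light against no light the list medians were -0.204 and 0.238. There 1 marker was called higher and 2 lower in the mixture experiment, and 1 higher and 1 lower in the single-drug experiment. The part of these markers in the Adra2c result was not tested.

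Adra2a, which encodes the alpha-2A receptor, pointed the same way as Adrb1 but was not called. After light it had 7.0, 7.14 and 6.12 CPM, against 8.91, 8.31 and 8.57 CPM without light in the mixture experiment. The groups did not overlap, at a log2 fold change of -0.35 ± 0.12 (adjusted p = 0.0893). In the single-drug experiment the difference was -0.56 ± 0.28 (adjusted p = 0.169), and no-light replicate 1, at 7.61 CPM, lay among the light libraries. After MDB it had 8.89, 8.02 and 10.1 CPM, all above light, at 0.41 ± 0.12 (adjusted p = 0.058). After BRM all 3 libraries, at 10.1 to 12.4 CPM, lay above the light libraries at 6.61 to 8.87 CPM, with a difference of 0.59 ± 0.28 (adjusted p = 0.18). Adra2a also lay above all light libraries after BMT (adjusted p = 0.253) and after DOX (adjusted p = 0.426). After MTP and after TAM it overlapped light, at 0.29 ± 0.28 and 0.26 ± 0.29 (adjusted p = 0.599 and 0.636). The BRM contrast was called in a fit of only BRM and light (adjusted p = 0.0333).

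The alpha-1 receptors had higher means after light, except Adra1b in the mixture experiment, and none of these differences was called. Adra1a, the alpha-1A receptor of smooth muscle and neurons, had 1.32, 1.51 and 1.38 CPM after light, against 0.501, 0.904 and 0.732 CPM without light in the mixture experiment. The groups did not overlap, at 1.00 ± 0.38 on the log2 scale (adjusted p = 0.113). The contrast was called with the lens-fibre score in the fit (adjusted p = 0.0372). In the single-drug experiment they overlapped, since no-light replicate 1 had 2.43 CPM, and the difference was 0.42 ± 0.46 (adjusted p = 0.563). That library also held 922 CPM of the 5 melanin markers, against 84.2 and 43.9 CPM in the other no-light libraries, and 282 CPM of the pericyte and smooth muscle markers, against 77.2 and 69.3 CPM. Without it the difference was 1.14 (adjusted p = 0.0891), and the part of these markers was not tested. Adra1d, the alpha-1D receptor of blood vessels, differed by 0.55 ± 0.29 and 0.60 ± 0.35 (adjusted p = 0.261 and 0.238). Adra1b, the alpha-1B receptor, differed by -0.40 ± 0.29 and 0.26 ± 0.39 (adjusted p = 0.426 and 0.68), and light replicate 3 of the single-drug experiment stood apart at 3.60 CPM, against 1.46 and 1.09 CPM in its group. Without that library the single-drug difference of Adra1b was -0.45 (adjusted p = 0.39). The 8 pericyte and smooth muscle markers, all counted in every library, summed to 83.2 to 98.0 CPM after light, against 73.1 to 126 CPM without light in the mixture experiment, and to 105 to 111 CPM, against 69.3 to 282 CPM, in the single-drug experiment. Those groups overlapped in both. The 6 endothelial markers summed to 214 to 268 CPM after light, against 133 to 137 CPM without light in the mixture experiment, and to 231 to 363 CPM after light, against 116 to 170 CPM without light, in the single-drug experiment. Those groups did not overlap, and 1 of the 6 markers was called higher in each. The list medians were 0.0935 and 0.234 on the log2 scale. Kdr, at 65.5 to 287 CPM over the libraries, was the largest part of the sum. Flt1 followed at 35.9 to 62.8 CPM, and Pecam1, Cldn5, Tek and Cdh5 had at most 6.5 CPM. The part of these markers in the alpha-1 values was not tested.

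Tamsulosin, which blocks the receptor encoded by Adra1a, was the drug after which Adra1a was called lower than light. It had 0.183, 0.626 and 0.814 CPM after TAM, against 1.82, 2.31 and 1.23 CPM in light. The groups did not overlap, and the log2 fold change was -1.68 ± 0.50 (adjusted p = 0.0446, 95% interval -2.75 to -0.60). The TAM libraries held 2.16, 12.0 and 13 counts, and the call was lost without any 1 of 5 libraries, namely light 1 (0.0917), light 2 (0.15), TAM 1 (0.127), TAM 2 (0.0642) and TAM 3 (0.0732). It was also lost with no filter (0.0555), limma voom (0.0593), a replicate block (0.0712), a fit of only these groups (0.131) and the lens-fibre score (0.0629). After MTP, which does not target alpha-1 receptors, Adra1a had 0.833, 0.804 and 1.16 CPM, also below all light libraries, at -0.94 ± 0.48 (adjusted p = 0.248). After BMT, which also holds tamsulosin, Adra1a overlapped light, at -0.19 ± 0.36 (adjusted p = 0.753). After MDB it overlapped light too, at -0.33 ± 0.37 (adjusted p = 0.665). Doxazosin, the other alpha-1 blocker, gave -0.75 ± 0.47 against light (adjusted p = 0.31), and DOX minus TAM was 0.92 with a 95% interval of -0.17 to 2.02 (adjusted p = 0.403). The drugs were thus not shown to differ in this transcript, nor to act alike.

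After BMT Adra1d had 1.27, 1.10 and 0.997 CPM, against 1.61, 2.76 and 1.79 CPM in light. All BMT libraries lay below all light libraries, and the difference of -0.87 ± 0.29 was not called (adjusted p = 0.0625). With FPKM values it was called at both pseudocounts (adjusted p = 0.0239 and 0.0266). MDB, which holds doxazosin in place of tamsulosin, had Adra1d at 1.73, 1.89 and 2.36 CPM, all above BMT, and MDB minus BMT was 0.83 with a 95% interval of 0.19 to 1.48 (adjusted p = 0.196). Among the single drugs Adra1d was lowest against light after MTP, which both mixtures hold, at -0.89 ± 0.35 (adjusted p = 0.133). The difference was -0.71 ± 0.35 after TAM (adjusted p = 0.231), -0.31 ± 0.34 after DOX (0.6) and -0.27 ± 0.34 after BRM (0.667). DOX minus TAM was 0.40 ± 0.36 (adjusted p = 0.632). The part of each drug in the mixture values was not tested. Adra1b passed the threshold after no drug, with log2 fold changes of -0.43 to 0.22 against light.

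**Figure D3:**
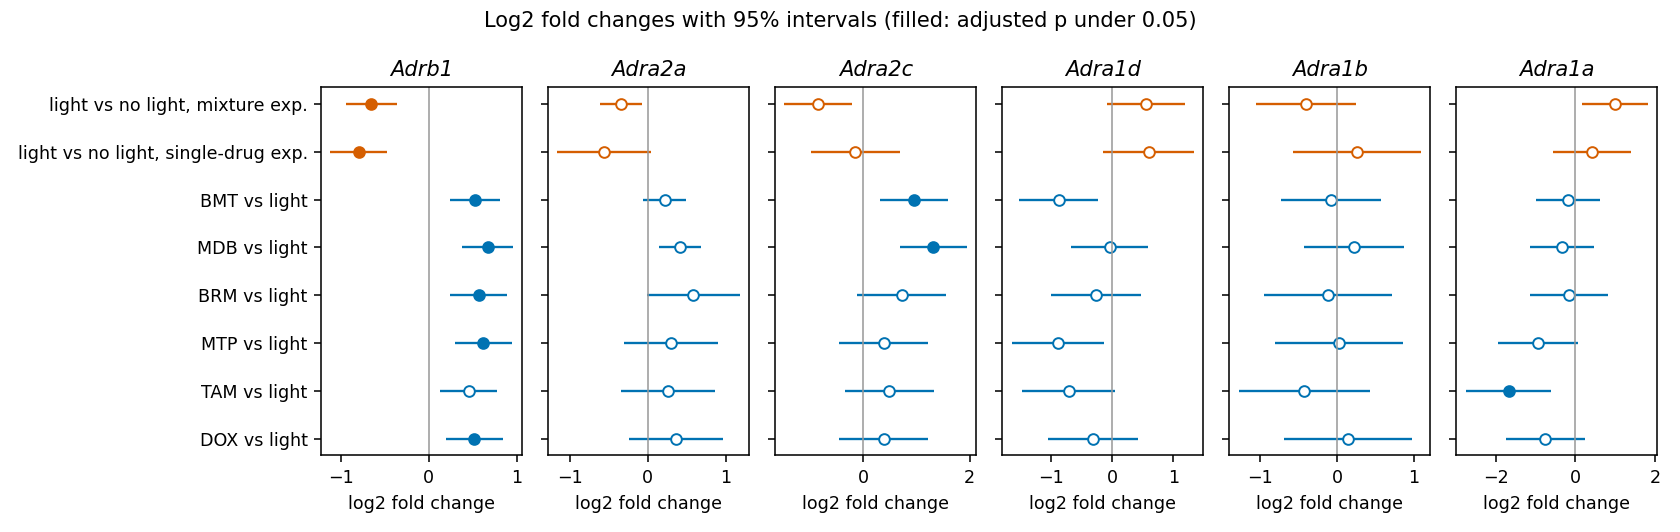
Log2 fold changes of the 6 receptors with 95% intervals, light against no light in orange and drug against light in blue, filled where the adjusted p was under 0.05. Adrb1 was called lower after light in both experiments and higher after every treatment except TAM, Adra2c was called after BMT and MDB, and Adra1a after TAM.

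The make-up of the receptor families is given as a description of levels per length. As a share of the summed FPKM of the 6 genes, alpha-1 transcripts made up 23.6 ± 4.32% after light, against 15.0 ± 4.08% without light in the mixture experiment, and 24.6 ± 5.7%, against 14.2 ± 1.53%, in the single-drug experiment (SD, n = 3 each). The light libraries ran from 19.8% to 28.3% and the no-light libraries from 11.2% to 19.3% in the mixture experiment. Light ran in the single-drug experiment from 18.4% to 29.6% and no light from 12.5% to 15.4%, so neither pair of groups overlapped. The summed alpha-1 FPKM itself overlapped in both experiments, at 1.99 to 2.90 after light, against 1.31 to 2.42 without light in the mixture experiment, and at 2.02 to 3.36 after light, against 1.68 to 2.07 without light, in the single-drug experiment. The share therefore also carries the lower beta-1 level after light and, in the mixture experiment, a lower alpha-2 level. Summed alpha-2 FPKM was 3.07 to 3.57 after light there, against 4.34 to 4.67 without light. In the single-drug experiment it overlapped, at 3.82 to 4.97 after light, against 4.63 to 4.93 without light. After BMT the share was 13.9 ± 1.4% and after MDB 15.3 ± 1.1%. After BRM it was 15.6 ± 1.16%, after MTP 14.1 ± 2.7%, after TAM 13.8 ± 6.44% and after DOX 17.6 ± 2.8%, and the TAM and DOX groups overlapped light. Beta-1 made up 42.9 ± 5.37% after light and 49.1 ± 3.44% without it in the mixture experiment, with overlap, and 39.6 ± 5.66% and 50.7 ± 1.91% in the single-drug experiment, without overlap. These shares were not tested.

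**Figure D4:**
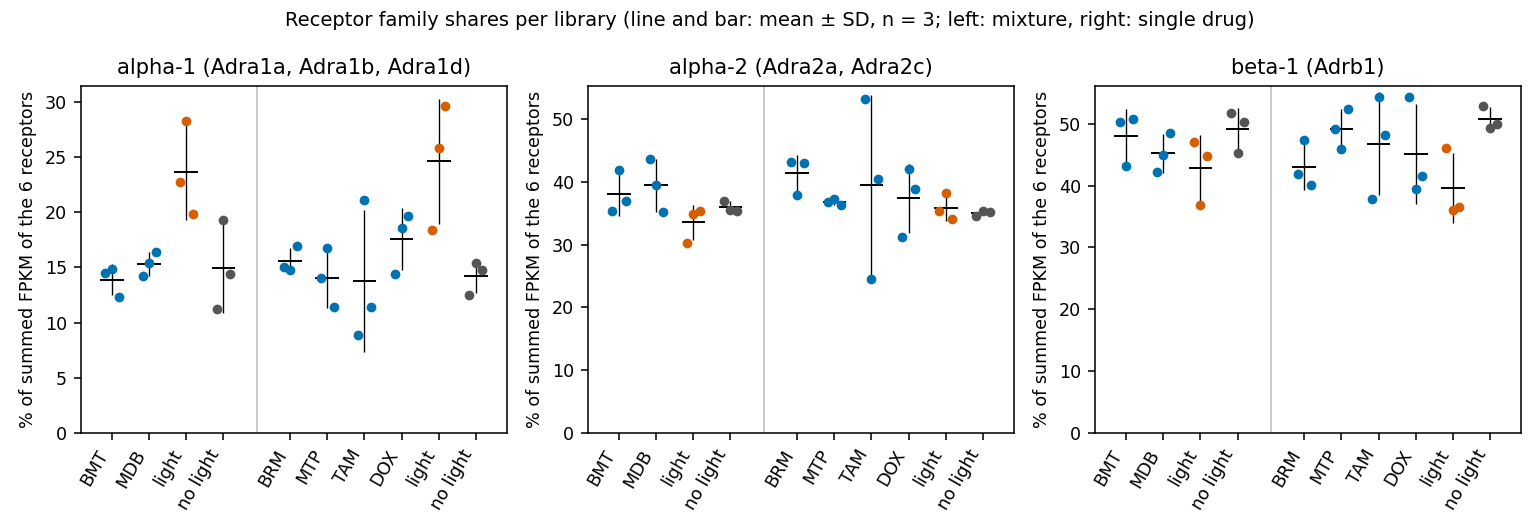
Percent of the summed FPKM of the 6 receptors held by the alpha-1, alpha-2 and beta-1 genes in each library, with the mean and SD of 3 libraries, the mixture experiment on the left of each panel. The alpha-1 share was 18.4% to 29.6% in the light libraries and 11.2% to 19.3% in the no-light libraries.

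Drug groups were also set against retinas that saw no bright light. No receptor was called in BMT, MDB, BRM, MTP, TAM or DOX against no light by edgeR's test, which called 0% of all genes in each of these comparisons, and none was called by limma voom. DESeq2 called none of the 6 after BMT, MDB, MTP, TAM or DOX, where it called 0.0185% to 0.247% of genes. Against no light after BRM it gave none of the 6 an adjusted p, so it made no call on them either way. There it called 5.83% of the 7103 genes that had one. At an unadjusted p under 0.05 edgeR's count was 2 receptors after TAM, beside 8.17% of all genes, and 0 after each of the others, beside 6.3% to 15.6%. Those 2 were Adra1a, at -1.26 ± 0.51, and Adrb1, at -0.34 ± 0.15 (adjusted p = 0.586 and 0.593). Adrb1 after TAM and after BRM lay below all no-light libraries, which were at 15.5 to 17.4 CPM, while after MTP and DOX it overlapped them. It was the 1 receptor that did not overlap no light after TAM and after BRM, where 11.2% and 25.3% of all genes did not, and Adra1d was the 1 after MDB, beside 14.6%. After BMT and MDB the Adrb1 difference from no light was -0.13 and 0.02, with 95% intervals of -0.41 to 0.16 and -0.27 to 0.30. MDB against BMT and DOX against TAM gave no called receptor by edgeR or limma voom, and both called 0% of genes. DESeq2 gave an adjusted p to 0 of the 6 receptors for MDB against BMT, where it called 11.8% of the genes that had one. For DOX against TAM it gave one to 3 (Adra2a, Adra2c and Adrb1), called none of these, and called 1.13% of genes. At an unadjusted p under 0.05 edgeR's count was 1, Adra1d, for MDB against BMT, beside 18.7% of all genes, and 0 for DOX against TAM, beside 15.5%. Adra1d was also the 1 receptor whose MDB and BMT libraries did not overlap, beside 27% of all genes.

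The light effect itself was compared between experiments as the mixture minus the single-drug log2 fold change. No receptor was called by edgeR (adjusted p of 0.554 to 0.977), which called 0% of 16645 genes. At an unadjusted p under 0.05 the count was 0 receptors, beside 15.1% of all genes. By limma voom 0 receptors and 0.0661% of genes were called. DESeq2 gave none of the 6 an adjusted p here and called 5.34% of the 7928 genes that had one. For Adrb1 the difference was 0.15 with a 95% interval of -0.28 to 0.57, and for Adra2c, the widest in size, -0.69 with an interval of -1.76 to 0.38. In the authors' deposited tables of changed transcripts, 521 in the mixture experiment and 622 in the single-drug experiment, 0 belonged to these 6 genes. The authors' deposited normalized tables list Adra2a, Adra2c and Adrb1 in both experiments and Adra1d in the mixture experiment.

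Over all 30 libraries, each experiment centred on its own mean, the genes whose log2 CPM ran most like that of Adrb1 were Tex261 (Pearson r = 0.898), Snrk (0.892) and Kcne2 (0.875), of 12925 genes compared. For Adra2c Fam107a (0.832) and Fgfr2 (0.821) are given, and for Adra2a they were Sfxn5 (0.798), Strip2 (0.796) and Rpa1 (0.763). Strip2 ran with Adra2a at 0.456 in the mixture experiment and at 0.861 in the single-drug experiment. For Adra1b the closest was Clec2l (0.811), followed by Fmnl1 (0.738) and Tmem25 (0.735). For Adra1d they were Scamp3 (0.772), Unkl (0.768) and Fscn1 (0.768), and for Adra1a Uap1l1 (0.735), Stx4a (0.725) and Trpm1 (0.706). Among the receptors Adrb1 correlated with Adra2a at 0.481, with Adra2c at 0.273 and with Adra1d at -0.416. Libraries share groups and depth, so these coefficients are descriptions with n = 30 libraries.

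Genes that make, carry or break down noradrenaline were read from a list of 9. Of these, 8 matched a single gene identifier and 6 passed the filter, since Dbh and Pnmt, which encode the enzymes that form noradrenaline and adrenaline, were too low to test. Dbh had at most 0.288 CPM in any library. Slc6a2, the noradrenaline transporter that takes the ligand back into nerve endings, was the list's largest change. It had 5.22, 4.64 and 3.96 CPM after light, against 0.901, 0.303 and 0.460 CPM without light in the mixture experiment, which is 3.03 ± 0.39 on the log2 scale (adjusted p = 0.000423). Slc6a2 in the single-drug experiment had 4.00, 4.38 and 2.82 CPM after light, against 0.258, 0.364 and 1.23 CPM without light, at 2.61 ± 0.59 (adjusted p = 0.00487). In both experiments every light library was far above every no-light library.

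Slc6a2 was lower than light after each mixture and after 3 of 4 single drugs. It stood at 0.339 ± 0.02 CPM after BMT and 0.670 ± 0.29 CPM after MDB, with log2 fold changes of -3.76 ± 0.42 and -2.78 ± 0.39 (adjusted p = 0.000181 and 0.000899). The change was -2.75 after BRM, -2.84 after MTP and -2.0 after TAM (adjusted p = 0.00786, 0.00803 and 0.0375), while DOX gave -1.75 (adjusted p = 0.055, and 0.0246 by DESeq2). Thin counts, with means under 10, occurred for Slc6a2 after BMT (7.94, 8.14 and 6.07 counts) and after MTP (6.2, 17.8 and 4.11 counts). Its no-light means were 11.2 counts in the mixture experiment and 12.1 in the single-drug experiment. The sizes of these changes therefore rest on few counts outside the light groups. The TAM call was lost without light 1 (0.0872), light 2 (0.115), light 3 (0.0532), TAM 1 (0.0961) or TAM 3 (0.179), and in a fit of only these groups (0.0647). Maoa, an enzyme that degrades noradrenaline, rose with light by 0.54 ± 0.14 and 0.72 ± 0.14 (adjusted p = 0.0243 and 0.00186). It was lower than light after MDB, BRM, MTP and TAM, with log2 fold changes of -0.66 to -0.52. Of these the BRM call was kept without each library in turn. The MTP call was lost without light 2 (0.0626), light 3 (0.0594) or MTP 2 (0.0652), the TAM call without TAM 3 (0.0576), and the MDB call without light 1 (0.0833), light 2 (0.15), MDB 1 (0.0537), MDB 2 (0.0796) or MDB 3 (0.136). The mixture light call of Maoa was lost without no-light 1 (0.0708) or 3 (0.0984) and without light 1 (0.0572) or 2 (0.0982). In fits of only the groups compared it was lost too (0.07), as was the MDB call (0.0631), which the lens-fibre score also ended (0.0903). Th, the rate-limiting enzyme of catecholamine synthesis, was not called in either experiment (-0.50 ± 0.40 and 0.28 ± 0.35). Over the list, 2 of 6 genes were higher and 0 lower after light in the mixture experiment, with a median of 0.301, and 3 of 6 were higher in the single-drug experiment, with a median of 0.663, the third being the vesicular transporter gene Slc18a2. Of all genes, 13.2% and 24% were called in these comparisons.

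**Figure D5:**
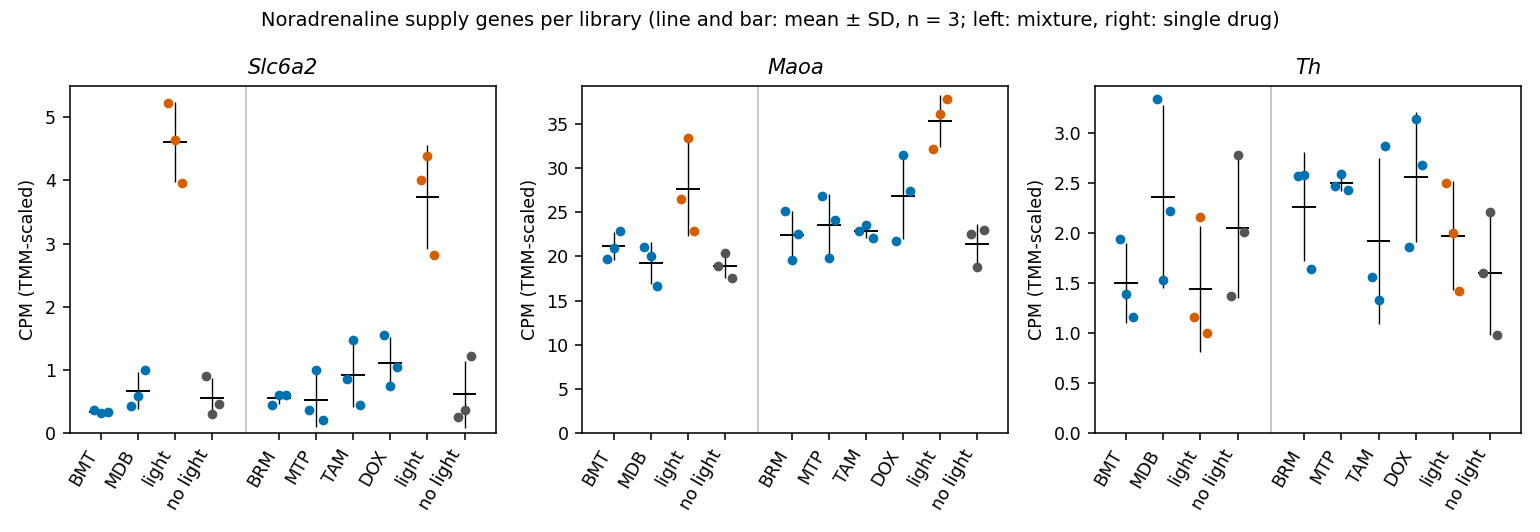
CPM (TMM-scaled) of Slc6a2, Maoa and Th per library and group, with the mean and SD of 3 libraries, the mixture experiment on the left of each panel. Slc6a2 stood at 2.82 to 5.22 CPM in the 6 light libraries and at most at 1.55 CPM in all others, while Th overlapped between light and no light.

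Downstream of the receptors, listed G protein subunits and effectors moved in both directions. Of 16 Gs and Gi subunits and adenylyl cyclases, 3 were higher (Adcy1, Adcy4 and Gnal) and 1 lower (Adcy6) after light in the mixture experiment, and 4 were higher (Gnai1, Gnai2, Gnai3 and Gnal) and 2 lower (Adcy6 and Gnaz) in the single-drug experiment. The list medians were 0.0923 and 0.23 on the log2 scale, beside medians of 0.00692 and 0.0181 over all genes, of which 13.2% and 24% were called. Adcy6, an adenylyl cyclase that Gs stimulates and Gi inhibits, stood at 78.2 ± 8.68 CPM after light, against 120 ± 9.74 CPM without light in the mixture experiment (-0.62 ± 0.10, adjusted p = 0.00193). Its single-drug means were 58.8 ± 5.31 CPM after light and 128 ± 6.62 CPM without light (-1.12 ± 0.14, adjusted p = 0.000126). After each drug or mixture Adcy6 was higher than light, by 0.59 to 0.91, and each of these calls was kept without each library in turn, though the TAM call was lost in a fit of only TAM and light (adjusted p = 0.0606). Gnaz, a Gi-class subunit, was called lower after light in the single-drug experiment (-1.15 ± 0.17, adjusted p = 0.000278). In the mixture experiment Gnaz was not called. Over the 9 other settings it ran there from -0.318 to -0.117 (adjusted p of 0.081 to 0.544).

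Of 11 listed genes of the Gq branch, 10 passed the filter. Plcb4, a phospholipase C, was higher after light by 0.36 ± 0.05 and 0.46 ± 0.11 (adjusted p = 0.000849 and 0.00581), and Prkca, a protein kinase C, was lower by -0.37 ± 0.08 in the mixture experiment (adjusted p = 0.00908). Plcb3 was not called in the mixture experiment (0.77 ± 0.27, adjusted p = 0.086), though 5 of 9 other settings called it. In the single-drug experiment Plcb3, Plcb4 and Prkcb were higher and Itpr2 and Prkca lower, beside 24% of all genes called, with Plcb3 at 0.74 ± 0.20 (adjusted p = 0.0143, and 0.0512 without no-light 2). Prkca stood at -0.47 ± 0.14 there (adjusted p = 0.025), and that call was lost without no-light 3 (0.12), light 1 (0.0788) or light 3 (0.0822). With FPKM values Prkca was called in neither experiment. Among 10 receptor kinases, arrestins and RGS proteins, 0 were called by edgeR in the mixture experiment, and 2 had an unadjusted p under 0.05, Rgs16 (adjusted p = 0.0663, and 0.0485 by DESeq2) and Arrb2 (0.112). In the single-drug experiment Arrb1 and Adrbk2 were higher and Grk5 was lower, 3 of 10 genes beside 24% of all genes. The Arrb1 call was lost without no-light 1 (0.0725), light 2 (0.0695) or light 3 (0.0735). The Grk5 call was lost without no-light 2 (0.0816) or 3 (0.121) and without light 1 (0.131) or 2 (0.12). It was also lost in 4 of 9 other settings, with an adjusted p of up to 0.521 with FPKM values. Of the receptors listed beside the 6, Adra2b passed the filter but was thinly counted, with group means of 7.12 counts after light in the mixture experiment and 9.61 without light in the single-drug experiment. It had 0.318 ± 0.13 CPM after light, against 0.561 ± 0.09 CPM without light in the mixture experiment (-0.77 ± 0.45, adjusted p = 0.307), while Adrb3 did not pass and is too low to judge.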

How the data were processed

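Neural retina RNA was sequenced with a stranded poly(A) kit. Per the submitters' processing notes, Trimmomatic, Bowtie2, TopHat2, eXpress, edgeR and limma were used on GRCm38.p3, without stated versions. The deposited expected counts (eXpress effective counts of 102906 transcripts, not normalized) were summed per gene and rounded, and the deposited FPKM values by eXpress were summed likewise. The authors' normalized FPKM tables were used only to see which receptors they list. The authors' tables of changed transcripts give log2 fold changes against light and an adjusted p-value over groups, and only membership was read from them.

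Each experiment was fitted by itself with the quasi-likelihood test of edgeR 4.0.16 (R 4.3.3), with the default count filter (16007 and 16249 genes tested) and TMM. The test was two-sided, and the call threshold was 0.05 after Benjamini-Hochberg adjustment over all genes of a comparison. Log2 fold changes carry SE, and group means carry SD over 3 libraries. A mean under 10 counts was named as thin. There were 17 comparisons. The 6 receptors and the gene lists were chosen with earlier results of these data known. Named genes are the 6 receptors, the 3 genes most like each, and per list the 2 with the smallest adjusted p for light. Th, Dbh, Pnmt, Adrb3 and the other members behind small counts were named after their values were seen. One gene most like Adra2c and 1 listed rod marker are not reported here, and the rod sums leave that marker out. Alternatives were RLE size factors, no filter, DESeq2 1.42.0, limma 3.58.1 voom, a replicate block, only the groups compared, FPKM with pseudocounts of 1 and 0.1, the lens-fibre score as covariate, and each library left out. Low genes are limited by their counts.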

Additional observations from a re-analysis of the deposited data

How the results depend on the processing

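For the 6 receptors over 17 comparisons, 840 of the results under the other settings stayed on their side of the threshold and kept their direction or moved by less than their SE, 21 lost a call and 6 gained one, and no direction of a called result turned. With each library left out, 608 did so, 27 lost a call, 1 gained one and 12 uncalled values changed sign by more than their SE. DESeq2 gave no adjusted p to any receptor for BRM against no light, MDB against BMT and the difference of the light effects, and to 3 of 6 for DOX against TAM, so it gives no count there. The cause of these shifts was not tested.

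The number of receptors called after light in the mixture experiment was 1, and it was 2 with DESeq2 and with the lens-fibre score. For BMT against light it was 2, and it was 1 with a replicate block, with only the groups compared and with FPKM at either pseudocount. For BRM against light it was 1, with 2 in a fit of only the groups compared and 0 with FPKM. For MTP against light it was 1, with 0 for FPKM and for the lens-fibre score. For TAM against light it was 1, with 2 for DESeq2 and 0 with no filter, with limma voom, with a replicate block, with only the groups compared and with the lens-fibre score. For DOX against light it was 1, with 0 for a replicate block, only the groups compared, FPKM and the lens-fibre score. With 1 library left out the number ran from 1 to 2 for light in the mixture experiment and for MDB, from 0 to 2 for BMT, and from 0 to 1 for BRM, MTP, TAM and DOX.

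Same-numbered libraries deviated together, with every correlation over 0.1, in 1 of 16 comparisons, TAM against no light (0.391, 0.175 and 0.134), where no receptor was called with or without the block. In the others at least 1 correlation was 0.1 or lower, which cannot exclude that same-numbered libraries were handled together. The replicate block ended the calls of Adra2c after BMT, Adra1a after TAM and Adrb1 after DOX, as given above, and left the other receptor calls in place. Depth limits the alpha-1 receptors most, whose libraries held 2.16 to 86.8 counts.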
